A study of Mus musculus with 12 samples.

Results

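Described here are 46 genes of the cell division cycle and of DNA replication in mouse T cells with and without Coro1a, the gene of the actin-binding protein coronin 1. The genes were named by symbol, with earlier results of these data known, and all 46 were found among the 45706 genes of the count table. They were kept in 2 sets, 18 genes that act up to and during S phase, when DNA is copied, and 28 genes of mitosis, when the copies are pulled apart. The 4 groups were wild-type (WT) conventional T cells, conventional T cells of the Coro1a knockout (KO), WT regulatory T cells and KO regulatory T cells, with 3 polyA RNA libraries each. No treatment and no time course are given for any group. Conventional T cells help or kill other cells, and regulatory T cells, marked by the transcription factor Foxp3, restrain them. The series as a whole is about coronin 1 in T cells and the rejection of transplants. Strain, age, organ of origin, the way the cells were sorted and the way Coro1a was removed are not stated in the labels. They also do not say whether replicates came from separate animals, so the p-values cover only the spread among the libraries.

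A dividing cell commits to S phase when E2F transcription factors and cyclin E with its kinase switch on the genes of nucleotide synthesis and of the replication machinery. The MCM2 to MCM7 proteins form the ring-shaped helicase that is loaded onto DNA in G1 by CDC6 and CDT1 and opens the double helix in S phase. Later, the DREAM and MuvB complexes together with MYBL2 and FOXM1 control the mitotic genes, which encode the kinases, the checkpoint and the spindle. Resting T cells keep most mitotic transcripts low, whereas activated T cells divide, and regulatory T cells are known to divide more often in the body than naive conventional ones.

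The 2 sets differ in known promoter elements, so promoter windows were searched before the levels were compared. The search covered the mouse RefSeq windows of the GRCm38.p6 assembly, from 250 bases before to 50 bases after a gene's start, on both strands. The first element was the cell cycle homology region (CHR), spelled TTTGAA or TTCGAA, to which DREAM and MuvB bind. The second was the box CCAAT, which NF-Y binds, and the third an E2F site spelled TTTCGCGC, TTTGGCGC or TTCCCGCC. Spellings of the E2F site may overlap each other on opposite strands, as they do in both S phase promoters printed here. Of the 46 members, 37 matched a window, 15 of S phase and 22 of mitosis. Not matched were Mcm4, Gins2, Ccne2, Ccna2, Aurkb, Foxm1, Kif20a, Tpx2 and Stmn1. A CHR spelling was present in 17 of 22 mitotic members (77.3%), in 3 of 15 S phase members and in 21.7% of all 27025 genes with a window. All 17 of these mitotic members also held CCAAT, and a window with both elements was found in 8.61% of all genes. CCAAT by itself was present in 86.4% of mitotic members, 60.0% of S phase members and 41.1% of all genes. An E2F spelling was found in 7 of 15 S phase members (46.7%), in 1 of 22 mitotic members (4.55%), which was Cdk1, and in 3.39% of all genes. The motif matches describe letters in these windows and not binding.

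The 250 bases before the start are shown for the 2 S phase and the 2 mitotic members with the highest mean level among those with an E2F spelling (S phase) or a CHR spelling (mitotic) wholly inside these 250 bases. They are written 5′ to 3′ on the strand of the gene, from RefSeq (GRCm38.p6), because they let the 2 kinds of promoter be compared letter by letter. Capitals mark E2F spellings in the first pair and CHR or CCAAT spellings, on either strand, in the second pair.
Mcm6 (chr1:128359706-128359955, minus strand): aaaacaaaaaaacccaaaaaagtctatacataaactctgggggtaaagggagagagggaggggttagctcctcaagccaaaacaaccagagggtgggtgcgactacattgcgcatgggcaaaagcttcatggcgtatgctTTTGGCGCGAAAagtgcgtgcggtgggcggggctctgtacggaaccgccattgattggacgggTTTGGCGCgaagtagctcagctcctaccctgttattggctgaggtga
Mcm5 (chr8:75109259-75109508, plus strand): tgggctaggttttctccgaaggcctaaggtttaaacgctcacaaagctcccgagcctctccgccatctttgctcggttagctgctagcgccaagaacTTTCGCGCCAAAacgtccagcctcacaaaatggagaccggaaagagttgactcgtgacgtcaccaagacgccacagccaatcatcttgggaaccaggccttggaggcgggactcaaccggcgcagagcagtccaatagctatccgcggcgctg
Mki67 (chr7:135716380-135716629, minus strand): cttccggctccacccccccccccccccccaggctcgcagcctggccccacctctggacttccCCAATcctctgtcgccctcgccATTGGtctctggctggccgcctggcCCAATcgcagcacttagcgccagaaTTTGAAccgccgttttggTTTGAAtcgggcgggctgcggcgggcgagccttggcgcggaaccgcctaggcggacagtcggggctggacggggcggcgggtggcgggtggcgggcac
Top2a (chr11:99024190-99024439, minus strand): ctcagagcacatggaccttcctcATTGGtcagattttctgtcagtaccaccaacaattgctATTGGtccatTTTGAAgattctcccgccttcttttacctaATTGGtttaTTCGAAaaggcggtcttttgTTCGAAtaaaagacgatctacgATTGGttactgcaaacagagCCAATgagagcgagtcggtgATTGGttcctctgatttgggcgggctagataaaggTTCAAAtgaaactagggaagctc
In Mcm6 the run from position -110 joins 2 overlapping E2F spellings and the third lies at -47, counted from the start of the gene. Mcm5 holds 2 overlapping spellings that begin at -153 and -149. Mki67 has 2 CHR spellings, at -116 and -98, with 3 CCAAT boxes upstream of both. Top2a has 4 CHR spellings, at -179, -140, -120 and -23, among 6 CCAAT boxes.

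**Figure D1:**
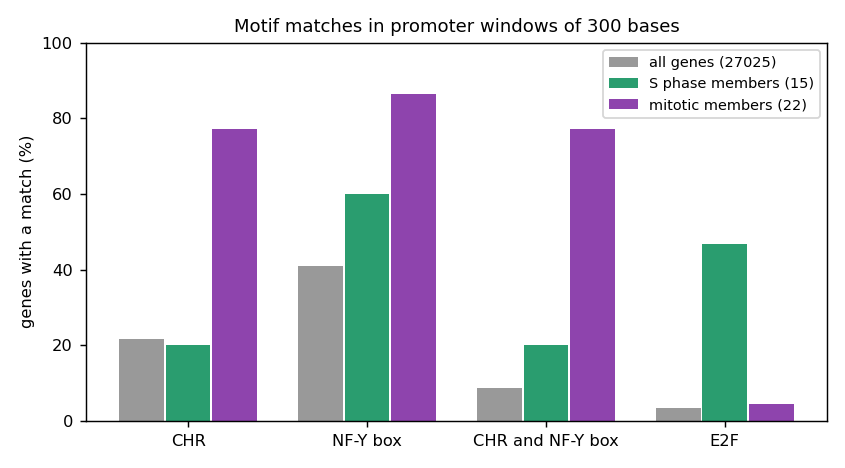
Share of genes (%) whose promoter window of 300 bases holds a CHR element, a CCAAT (NF-Y) box, both, or an E2F site, for all 27025 genes with a window (grey), 15 S phase members (green) and 22 mitotic members (purple). CHR reaches 77.3% in mitotic members against 21.7% of all genes, and the E2F spellings reach 46.7% in S phase members against 3.39%.

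Gene counts per library ran from 19686870, in WT regulatory replicate 1, to 33404302, and 15922 genes were tested in one fit over all 12 libraries. Coro1a fell to 45.1 ± 1.82 CPM (the usual count unit relative to library size, here with TMM-adjusted sizes) in KO conventional libraries from 2294 ± 149 CPM in WT. In regulatory libraries it fell to 26.7 ± 5.07 CPM from 2508 ± 200.1 CPM (SD, n = 3), and each KO library lay below each WT library. Foxp3 was 519.9 ± 53.4 CPM in WT regulatory and 23.7 ± 3.07 CPM in WT conventional libraries (SD, n = 3). The regulatory libraries also held transcripts of other cells. In them, 8 B cell markers summed to 3597 to 5045 CPM in WT, against 3977 to 4806 CPM in KO, above the 1683 to 2322 and 1083 to 1662 CPM of Lat, Cd5, Cd6, Cd3d, Cd3e and Cd3g, the 6 T cell genes used. The same 8 markers summed to 5.03 to 7.06 CPM in WT conventional libraries. WT regulatory replicate 3 and KO regulatory replicate 1 contained reads of both Xist, which females express, and Y-linked genes. Each conventional group had 2 libraries with Xist at 1210.5 CPM or more and 1 with Y-linked reads and Xist at most at 0.448 CPM, so its libraries did not all come from 1 animal. The other 4 regulatory libraries had Y-linked reads and Xist at most at 1.51 CPM, so that sex and cell type are partly joined.

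The summed level of the 28 mitotic members was lowest in WT conventional libraries, higher in KO conventional ones and highest in the regulatory groups. With TMM-adjusted sizes, that of the 18 S phase members differed mainly between the cell types. Mitotic members summed to 301, 244 and 280.0 CPM in the 3 WT conventional libraries and to 516, 508 and 517 CPM in KO conventional ones. They summed to 586, 842 and 821 CPM in WT regulatory and 797, 801 and 883 CPM in KO regulatory libraries. The conventional groups thus did not overlap, while WT and KO regulatory libraries did, and WT regulatory replicate 1 was the lowest of its group. S phase members summed to 765, 765 and 803 CPM in WT conventional and 834, 825 and 805 CPM in KO conventional libraries. The regulatory values were 1156, 1232 and 1187 CPM in WT, against 1233, 1293 and 1352 CPM in KO. The 6 helicase genes Mcm2 to Mcm7 carried most of the S phase sum and did not separate the conventional groups, with 492 to 519 CPM in WT, against 486 to 517 CPM in KO. Without them and without Pcna, the other 11 S phase members summed to 149 to 158 CPM in WT, against 216 to 219 CPM in KO conventional libraries. In these bulk libraries, fewer dividing cells and less RNA of these genes per cell cannot be told apart.

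**Figure D2:**
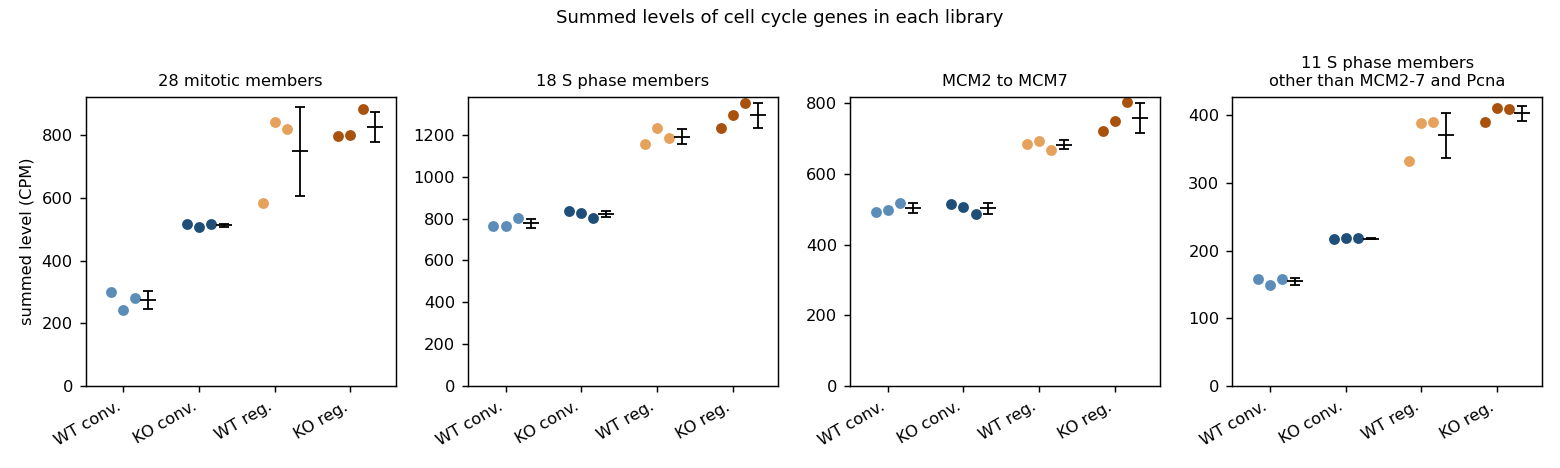
Summed level (CPM, linear axis from 0) of the 28 mitotic members, the 18 S phase members, the 6 helicase genes and the other 11 S phase members without Pcna, 1 point per library, with the mean and SD of 3 libraries beside each group. The mitotic sums of KO conventional libraries, 508 to 517 CPM, lie above all WT conventional ones, while the helicase sums of both conventional groups overlap.

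**Figure D3:**
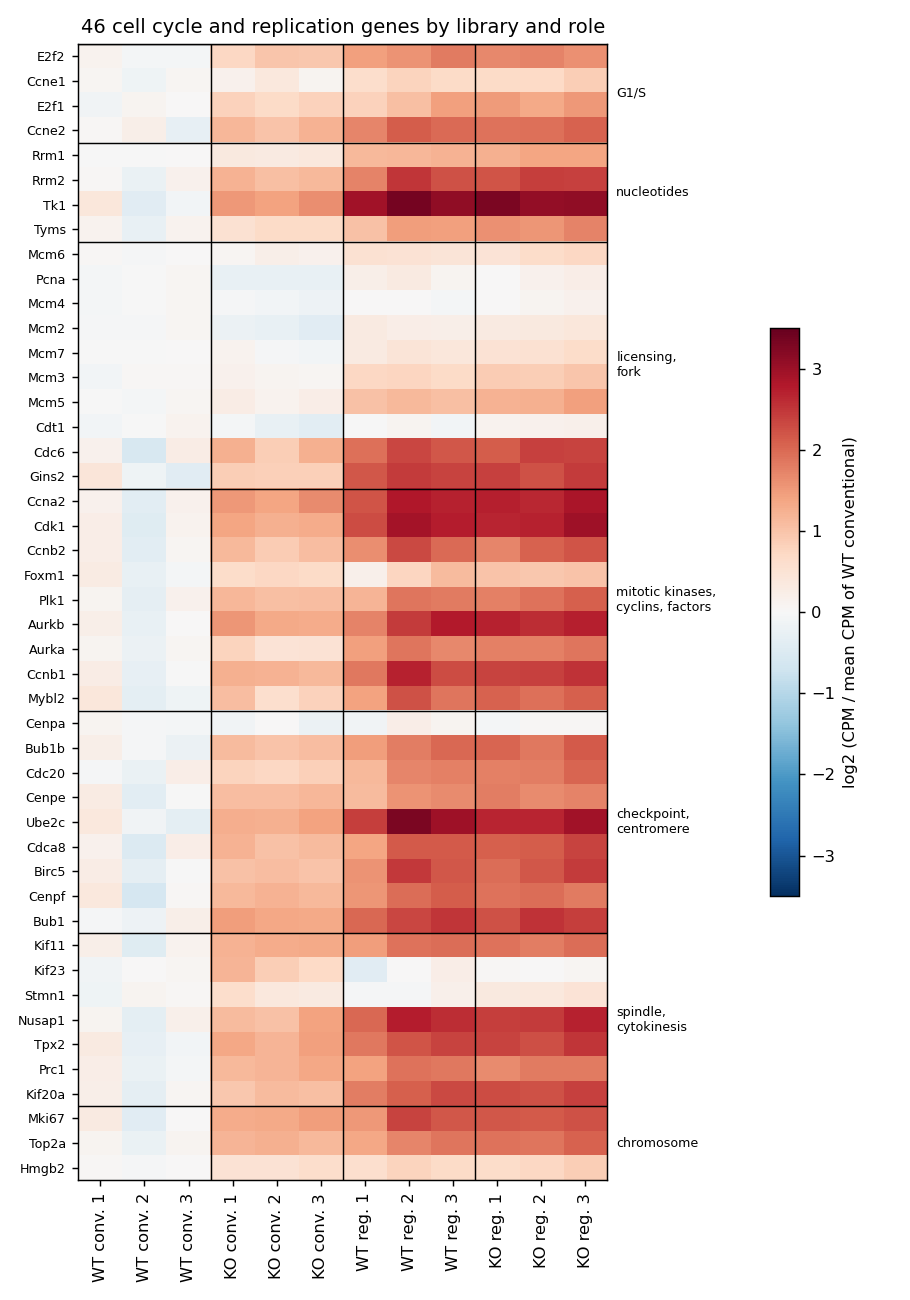
Level of each of the 46 members in each library as log2 of its CPM over the mean CPM of the 3 WT conventional libraries, red above and blue below that mean, with genes grouped by role. Most mitotic rows are red in KO conventional libraries and darker in regulatory ones, and the helicase rows and Cenpa stay pale.

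Conventional T cells with and without Coro1a were compared first. Most mitotic genes were about 2-fold higher in KO conventional libraries, genes of nucleotide supply and the E2F factors were higher as well, and the helicase genes had a median change near 0. Of the 46 members, 37 were higher and 3 lower by edgeR's quasi-likelihood test with Benjamini-Hochberg adjustment at a threshold of 0.05. Among all genes tested in this comparison, 23.3% were higher and 25.4% lower. The median log2 fold change was 1.03 over the members and -0.05 over all genes. The S phase set gave 10 higher and 3 lower with a median of 0.28, and the mitotic set 27 higher and 0 lower with a median of 1.11. Over all genes the split was 3706 higher to 4043 lower, but 4057 to 2840 with upper-quartile factors. Scaled to the 6 T cell genes instead, it was 7006 to 60, and the median of all genes was 0.53. Under that scaling 42 members were called higher and 0 lower. With the level of Xist as a covariate 40 members were called, and without WT regulatory replicate 3 and KO regulatory replicate 1, the 2 mixed libraries, 41.

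Nucleotide supply and the G1 to S switch rose. Tk1 (ENSMUSG00000025574, chromosome 11, 117815526 to 117826092 in GRCm38), the thymidine kinase that salvages thymidine for DNA synthesis, was 3.598, 2.09 and 2.56 CPM in WT, against 7.84, 7.26 and 8.45 CPM in KO conventional libraries. Its groups did not overlap, and on the log2 scale Tk1 rose by 1.51 (SE 0.18, adjusted p = 5.76e-05). Rrm2 (ENSMUSG00000020649, chromosome 12, 24708241 to 24714146), the small subunit of ribonucleotide reductase, was 9.68, 7.95 and 10.5 CPM in WT, against 21.7, 19.4 and 20.7 CPM in KO, a change of 1.14 (SE 0.16, adjusted p = 2.42e-04). The large subunit Rrm1 rose less, by 0.35 (SE 0.0491, adjusted p = 2.08e-04), from 45.1 ± 0.184 to 57.3 ± 0.836 CPM (SD, n = 3), and the thymidylate synthase gene Tyms by 0.62. All 4 nucleotide genes were called higher, as were 3 of the 4 G1 to S regulators. E2f2 (ENSMUSG00000018983, chromosome 4, 136172394 to 136196057), an activating E2F factor, was 34.9, 30.5 and 30.2 CPM in WT, against 52.8, 62.8 and 61.6 CPM in KO, a change of 0.89 (SE 0.10, adjusted p = 4.97e-05). E2f1 rose by 0.75 and the cyclin E2 gene Ccne2 by 1.13 (SE 0.17, adjusted p = 3.19e-04). Ccne1, the other cyclin E gene, had 7.46 ± 0.595 CPM in WT, against 8.65 ± 0.911 CPM in KO (SD, n = 3) and did not pass the test, at 0.21 (SE 0.11, adjusted p = 0.140).

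Of 10 licensing and fork genes, 3 were higher, 3 lower and 4 not called, with a median of 0.05. Both counts were close to the shares of all genes, 23.3% higher and 25.4% lower. Cdc6 (ENSMUSG00000017499, chromosome 11, 98907801 to 98923940), which loads the helicase, was 2.56, 1.56 and 2.75 CPM in WT, against 5.46, 4.17 and 5.47 CPM in KO, a change of 1.13 (SE 0.21, adjusted p = 0.00109). Gins2, a subunit of the active helicase, rose by 0.85. Mcm2 (ENSMUSG00000002870, chromosome 6, 88883474 to 88898780) was 86.3, 86.9 and 93.4 CPM in WT, against 77.1, 74.9 and 67.1 CPM in KO, the reverse order, with a change of -0.28 (SE 0.0580, adjusted p = 0.00212). Pcna (ENSMUSG00000027342, chromosome 2, 132249162 to 132253314), the sliding clamp that holds DNA polymerase on its template, was 115, 119 and 126 CPM in WT, against 101, 99.9 and 100.1 CPM in KO, a change of -0.26 (SE 0.0645, adjusted p = 0.00659). Cdt1, the second loader, was lower at -0.23 (SE 0.0845, adjusted p = 0.0427), and its groups overlapped. The 3 lower calls turned under T cell gene scaling, to 0.31 for Mcm2, 0.33 for Pcna and 0.36 for Cdt1, none of them called (adjusted p = 0.151, 0.0942 and 0.110). The call of Cdt1 was also lost, at adjusted p up to 0.166, on leaving out WT conventional 2 or 3, KO conventional 2 or 3, WT regulatory 1, KO regulatory 2 or 3.

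Within the helicase itself, the 6 subunits had a median of 0.05 in this comparison, and only Mcm5 was called higher, at 0.21 (SE 0.0665, adjusted p = 0.0196). Mcm5 lost its call, at adjusted p up to 0.0830, without WT conventional 1 or 2, KO conventional 1 or 3. Mcm6 (ENSMUSG00000026355, chromosome 1, 128331590 to 128359664), whose promoter is printed above, was 112, 106 and 110.1 CPM in WT, against 115, 127 and 120.3 CPM in KO, at 0.15 (SE 0.0593, adjusted p = 0.0609). Its groups stood apart by a small margin, and it was called higher when any 1 of the KO regulatory libraries was left out, at adjusted p from 0.0104. Mcm3 (0.10), Mcm4 (-0.11) and Mcm7 (0.00) did not pass the test, although Mcm3 was called without KO regulatory replicate 2, at adjusted p = 0.0226. Under T cell gene scaling Mcm4 and Mcm7 turned to 0.48 and 0.59.

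Among the mitotic kinases, cyclins and transcription factors, 9 of 9 were higher, with a median of 1.10. Ccna2 (ENSMUSG00000027715, chromosome 3, 36564865 to 36572150), cyclin A2, was 6.15, 4.302 and 6.08 CPM in WT, against 15.7, 14.5 and 17.2 CPM in KO. Each KO library exceeded each WT library, and the change of 1.52 (SE 0.17, adjusted p = 4.06e-05) was the highest among the 46 members, just ahead of Tk1. Cdk1 (ENSMUSG00000019942, chromosome 10, 69335146 to 69352938), the kinase that drives entry into mitosis, was 3.56, 2.25 and 3.298 CPM in WT, against 7.95, 7.26 and 7.47 CPM in KO, a change of 1.32 (SE 0.19, adjusted p = 2.63e-04). Its cyclins Ccnb1 and Ccnb2 rose by 1.21 and 1.03, and the mitotic kinases Aurkb, Plk1 and Aurka by 1.38, 1.10 and 0.59. The transcription factors Foxm1 and Mybl2 rose by 0.68 and 0.84. Foxm1 lost its call without WT conventional 2 or 3, and Mybl2 without WT conventional 2 or 3, KO conventional 1, at adjusted p up to 0.0644 and 0.0630.

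The spindle checkpoint and centromere genes followed with 8 of 9 higher. Bub1b (ENSMUSG00000040084, chromosome 2, 118598211 to 118641591), the checkpoint protein BUBR1, was 7.97, 6.62 and 5.99 CPM in WT, against 14.9, 13.6 and 14.4 CPM in KO, a change of 1.06 (SE 0.15, adjusted p = 1.76e-04). Its partner Bub1 rose by 1.38 (SE 0.17, adjusted p = 7.64e-05). Ube2c and Cdc20, which work with the anaphase-promoting complex, rose by 1.31 and 0.78, and the chromosomal passenger genes Birc5 (survivin) and Cdca8 (borealin) by 1.04 and 1.12. The kinetochore genes Cenpe and Cenpf rose by 1.10 and 1.16. Cenpa, the histone H3 variant of centromeres, was the exception, with 43.98, 39.95 and 38.8 CPM in WT, against 37.3, 41.1 and 35.4 CPM in KO. Its groups overlapped, and its change of -0.11 (SE 0.0899, adjusted p = 0.330) was not called. Per length, Cenpa had a higher level in WT conventional libraries than the other 8 genes of its role, at 6.98 RPKM (CPM per kilobase of exon) against 3.01 for Cdc20, the next. Its promoter window held 1 CHR and 2 CCAAT spellings.

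All 7 spindle and cytokinesis genes and all 3 chromosome proteins were higher. Kif11 (ENSMUSG00000012443, chromosome 19, 37376403 to 37421859), the motor that pushes spindle poles apart, was 9.75, 6.26 and 9.22 CPM in WT, against 19.7, 20.7 and 20.97 CPM in KO, a change of 1.28 (SE 0.16, adjusted p = 8.85e-05). Prc1, which bundles microtubules of the central spindle, rose by 1.23 (SE 0.15, adjusted p = 7.65e-05), and Tpx2, Nusap1 and Kif20a by 1.32, 1.19 and 1.03. Kif23 (ENSMUSG00000032254, chromosome 9, 61915905 to 61946774), a kinesin of the central spindle needed for cytokinesis, was 14.2, 15.6 and 16.2 CPM in WT, against 35.2, 28.02 and 25.04 CPM in KO, a change of 0.94 (SE 0.15, adjusted p = 4.93e-04). Stmn1, the microtubule destabiliser stathmin, rose by 0.44. Mki67 (ENSMUSG00000031004, chromosome 7, 135689784 to 135716361), which coats mitotic chromosomes and is the usual marker of cycling cells, was 38.97, 24.1 and 31.7 CPM in WT, against 77.2, 79.6 and 86.6 CPM in KO. All KO values were above all WT values, at 1.36 (SE 0.20, adjusted p = 2.47e-04). Top2a (ENSMUSG00000020914, chromosome 11, 98992943 to 99024189), the topoisomerase that untangles DNA, was 32.5, 25.9 and 32.2 CPM in WT, against 68.5, 72.2 and 66.5 CPM in KO, a change of 1.19 (SE 0.12, adjusted p = 2.21e-05). Hmgb2, a chromatin protein, rose by 0.55 (SE 0.0701, adjusted p = 1.07e-04).

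Transcripts of other cells differed between the same conventional libraries. Macrophage and monocyte markers (10 of 10 higher) summed to 289 to 431 CPM in WT, against 1676 to 3639.7 CPM in KO, and neutrophil markers (10 of 12 higher) to 8.73 to 15.8 and 357 to 716 CPM. NK cell markers (8 of 8 higher) summed to 67.8 to 85.5 and 303 to 569.6 CPM, and gamma delta T cell markers (7 of 7 higher) to 31.3 to 54.4 and 229.5 to 251 CPM. Dendritic cell markers (8 of 8 higher) summed to 3.699 to 5.41 and 46.1 to 106 CPM, B cell markers (8 of 8) to 5.03 to 7.06 and 35.4 to 57.5 CPM, plasma cell markers (6 of 6) to 67.4 to 77.1 and 120.4 to 173 CPM and erythroid markers (10 of 12) to 86.7 to 113 and 139.7 to 244 CPM. Regulatory T cell markers (4 of 5 higher) summed to 128 to 183 and 250.1 to 414 CPM, while the 6 T cell genes (6 of 6 lower) summed to 3062 to 3351 and 1948 to 2315 CPM. Immature thymocyte markers (1 higher and 1 lower of 6 tested) summed to 63.8 to 78.2 and 125 to 144 CPM. Among them Ccr9 rose, with 22.1, 19.2 and 14.6 CPM in WT, against 100.4, 83.2 and 82.9 CPM in KO, and Dntt fell from 11.6 ± 1.04 to 4.33 ± 0.392 CPM (SD, n = 3), while Rag1, Rag2 and Ptcra were at 0 in WT and Rag2 was at 0 in KO libraries. Germinal centre B cell markers (4 of 6 higher) summed to 41.8 to 48.5 and 49.6 to 59.5 CPM, with Rgs13 at 0 in WT, as was the plasma cell marker Tnfrsf17. The part of these other cells in the changes of the cell cycle genes was not tested.

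The same question in regulatory T cells gave a different count. In KO against WT regulatory libraries, 1 of 46 members was higher and 0 lower, while 4.01% of all genes tested were higher and 3.82% lower. The median log2 fold change was 0.13 over the members and 0.00 over all genes, with 0.14 in the S phase and 0.12 in the mitotic set. Mcm3 (ENSMUSG00000041859, chromosome 1, 20802968 to 20820312) was the member called, with 108, 109 and 104 CPM in WT, against 121, 119.6 and 129 CPM in KO. Its groups did not overlap, at 0.20 (SE 0.0502, adjusted p = 0.0346), but the call was lost at adjusted p up to 0.107 on leaving out WT conventional 2, KO conventional 1 or 2, WT regulatory 1 or 2 or 3, KO regulatory 1 or 3. The changes of all 46 members lay between -0.18, for Ube2c, and 0.37, for Stmn1, which just missed the threshold at adjusted p = 0.0505. With the Xist covariate 3 members were called, without both libraries that held Xist and Y-linked reads 2, and with T cell gene scaling 20 were called higher, where 32.1% of all genes were higher and 0.258% lower. At a minimum of 1.5-fold, 0 members were called.

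WT and KO regulatory values overlapped for Mki67, Ccna2 and Tk1. Mki67 was 90.1, 161 and 144 CPM in WT, against 142, 139 and 148 CPM in KO regulatory libraries, with WT replicate 1 far below the rest and replicate 2 above all KO libraries. Its change was 0.12 (SE 0.19, adjusted p = 0.738), with a 95% interval of -0.30 to 0.53. Ccna2 was 25.4, 38.4 and 35.6 CPM in WT, against 36.2, 34.3 and 39.6 CPM in KO, at 0.14 with an interval of -0.20 to 0.48. Tk1 was 21.00, 27.8 and 23.7 CPM in WT, against 26.8, 23.2 and 23.6 CPM in KO, at 0.02 with an interval of -0.33 to 0.37. For these 3 genes the interval, which holds for TMM factors, stopped short of the change seen in conventional cells. With T cell gene scaling Mki67, Ccna2 and Tk1 were at 0.63, 0.66 and 0.57, above these intervals and not called. Their changes in conventional cells were then 1.95, 2.12 and 2.10. Top2a was 77.8, 98.5 and 110.2 CPM in WT, against 112, 112 and 125 CPM in KO, which did not overlap, at 0.28 (SE 0.12, adjusted p = 0.154). Leaving out WT regulatory replicate 3 brought Top2a, E2f1 and Stmn1 past the threshold, at adjusted p = 0.0476, 0.0337 and 0.0295, and Rrm1 passed it without KO regulatory replicate 1, at adjusted p = 0.0341. Of the markers of other cells, 4 of 12 neutrophil genes were higher in KO regulatory libraries, with sums of 63.5 to 119 CPM in WT, against 126 to 305 CPM in KO. Gamma delta T cell markers (3 of 7 higher) summed to 41.7 to 88.5 and 85.1 to 171 CPM and NK cell markers (2 of 8) to 49.05 to 84.9 and 87.7 to 96.6 CPM. Of 6 immature thymocyte markers tested, Dntt and Arpp21 were higher, with 6.55 ± 0.527 CPM in WT, against 26.9 ± 9.79 CPM in KO (SD, n = 3) for Dntt. Macrophage and monocyte markers (0 of 10 called) summed to 957 to 1230.0 and 1025 to 2188 CPM, and plasma cell markers (0 of 6) to 762 to 2162 and 516 to 897 CPM. The part of these cells in the values of the members was not tested.

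**Figure D4:**
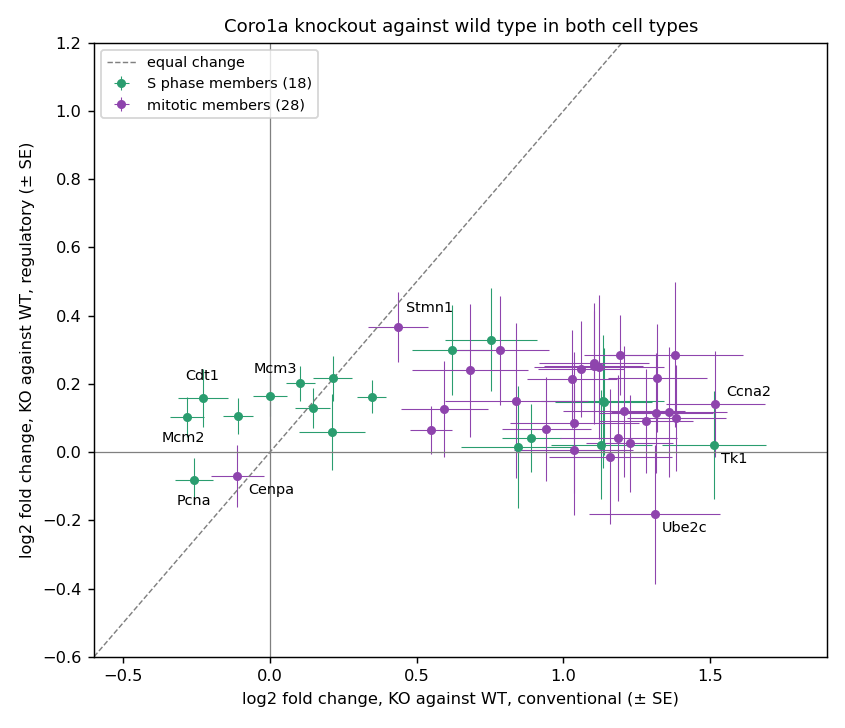
Log2 fold change of each member in KO against WT conventional libraries (horizontal) and regulatory libraries (vertical), with standard errors, for 18 S phase members (green) and 28 mitotic members (purple), and a dashed line of equal change. Most points lie below the line, with regulatory values between -0.18 and 0.37, and Mcm2, Cdt1 and Pcna lie left of 0 but turn under T cell gene scaling.

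A direct test of whether the KO effect differed between the cell types called 29 of the 46 members. In 27 of them the effect was lower in regulatory than in conventional cells and in 2, Mcm2 and Cdt1, it was higher. Among all genes tested, 12.4% were lower and 8.86% higher in this test, and the medians were -0.85 over members and 0.02 over all genes. The mitotic set had 21 lower and 0 higher of 28 and the S phase set 6 lower and 2 higher of 18. The difference of effects was -1.49 (SE 0.24, adjusted p = 0.00173) for Tk1, -1.49 (SE 0.30, adjusted p = 0.00602) for Ube2c and -1.38 (SE 0.23, adjusted p = 0.00216) for Ccna2. For Mki67 it was -1.24 (SE 0.27, adjusted p = 0.00881), for Top2a -0.91 (SE 0.17, adjusted p = 0.00366) and for Kif23 -0.87 (SE 0.22, adjusted p = 0.0154). Mcm2 had a difference of 0.39 (SE 0.0819, adjusted p = 0.00742), lower in KO conventional libraries and at 0.10 in regulatory ones. The count stayed at 29 with the Xist covariate. It was 22, 21 lower and 1 higher, without both libraries with Xist and Y-linked reads, where 12.9% of all genes were lower and 9.55% higher. It fell to 5, all lower, with T cell gene scaling, where 5.78% of all genes were lower and 0.188% higher. The signs of all 29 were kept under that scaling. Leaving out a single library cost Gins2, Cdc6, Cdt1, Ccnb1, Ccnb2, Aurkb, Plk1, Cenpe and Birc5 their call, at adjusted p up to 0.109. The other 20 kept it without each library in turn. In the same test B cell (8 of 8), NK cell (7 of 8) and erythroid markers (10 of 12) were lower. So were gamma delta T cell (6 of 7), dendritic cell (6 of 8) and plasma cell markers (5 of 6). Lower calls were fewer for neutrophil (6 of 12), macrophage and monocyte (5 of 10) and regulatory T cell markers (3 of 5). Immature thymocyte markers had 2 higher calls and 1 lower, and the 6 T cell genes had 0. The part of these cells in the differences was not tested.

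The other pair of comparisons set regulatory against conventional cells of one genotype. In WT, 41 of 46 members were higher and 0 lower in regulatory cells, against 39.1% of all genes higher and 33.3% lower. The median was 1.71 over members and 0.07 over all genes, 1.10 in the S phase set and 1.89 in the mitotic set. In KO, 42 were higher and 1 lower, against 36.1% and 31.7% of all genes, with a median of 0.90 over members and 0.03 over all genes. Both counts, 41 in WT and 43 in KO, were the same with the Xist covariate and without the 2 mixed libraries. Each of these comparisons shares its libraries with the KO comparisons above. The regulatory libraries also held the B cell transcripts given above, erythroid markers summing to 5291 to 9616 CPM in WT against 86.7 to 113 CPM in WT conventional libraries, and plasma cell markers summing to 762 to 2162 CPM against 67.4 to 77.1 CPM. KO regulatory libraries held 5975 to 7748 CPM of erythroid and 516 to 897 CPM of plasma cell markers. Also higher in WT regulatory libraries were dendritic cell (8 of 8), macrophage and monocyte (9 of 10), neutrophil (9 of 12) and CD8 T cell markers (2 of 2). So were gamma delta T cell (5 of 7), NK cell (4 of 8), immature thymocyte (4 of 6 tested) and germinal centre B cell markers (4 of 6). The neutrophil, gamma delta, NK cell and thymocyte lists each had 1 lower call. Higher in KO were dendritic cell (6 of 8), immature thymocyte (5 of 6) and CD8 T cell markers (2 of 2). Germinal centre B cell markers (4 of 6) were too, beside 36.1% of all genes, while higher neutrophil markers (3 of 12) were below that share. Lower there, beside 31.7% of all genes, were NK cell (8 of 8) and gamma delta T cell markers (3 of 7). Lower calls of macrophage and monocyte (3 of 10) and neutrophil markers (2 of 12) were not above that share. The thymocyte and germinal centre lists each had 1 lower call in KO. The part of these cells in the higher levels was not tested.

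Tk1 had the highest change of all members in both genotypes, 3.14 (SE 0.18, adjusted p = 5.65e-08) in WT and 1.64 (SE 0.16, adjusted p = 5.26e-06) in KO. Gins2 (ENSMUSG00000031821, chromosome 8, 120578633 to 120589304) was 2.05, 1.37 and 1.15 CPM in WT conventional and 6.93, 8.34 and 7.89 CPM in WT regulatory libraries, a change of 2.34 (SE 0.20, adjusted p = 9.14e-07). Rrm1 was 45.1, 44.9 and 45.3 CPM in WT conventional and 98.1, 101 and 105 CPM in WT regulatory libraries, which were tightly spaced, at 1.17 (SE 0.0494, adjusted p = 7.85e-09). In KO, Rrm1 was 57.3, 56.6 and 58.2 and 106, 117 and 118 CPM, at 0.98 (SE 0.0489, adjusted p = 3.86e-08). Among mitotic genes, Ube2c rose by 2.94, Cdk1 by 2.67 (SE 0.20, adjusted p = 3.39e-07), Ccna2 by 2.59 (SE 0.17, adjusted p = 1.54e-07) and Nusap1 by 2.49 in WT. In KO these 4 rose by 1.44, 1.47, 1.22 and 1.34. Of the helicase genes, 5 of 6 were higher in WT and 6 of 6 in KO, with medians of 0.44 and 0.60. Mcm5 rose by 1.08 (SE 0.0669, adjusted p = 1.04e-07) in WT and 1.08 (SE 0.0665, adjusted p = 1.61e-07) in KO, while Mcm4 was at -0.01 in WT, not called, and 0.20 in KO. The Mcm4 call in KO was lost at adjusted p = 0.0710 without KO regulatory replicate 2. Pcna rose by 0.21 in WT and 0.39 in KO, and lost its WT call at adjusted p up to 0.0561 without WT conventional 1, WT regulatory 2. Hmgb2 rose by 0.68 in WT and by 0.19 in KO, where its call was lost at adjusted p up to 0.215 without KO conventional 1 or 2, KO regulatory 2 or 3.

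A few members did not follow the rest. Kif23 was 11.6, 15.5 and 17.9 CPM in WT regulatory and 15.7, 15.5 and 16.2 CPM in KO regulatory libraries, the level of WT conventional ones, so that KO conventional libraries alone were high. It was at -0.02 (SE 0.15, adjusted p = 0.898) between cell types in WT and was lower in KO regulatory than in KO conventional cells, at -0.90 (SE 0.15, adjusted p = 2.72e-04), the 1 lower call among members in that comparison. Kif23 turned to 0.65 in WT with T cell gene scaling, and in KO its call was lost there, at -0.31 and adjusted p = 0.312. Stmn1 was 13.5, 16.03 and 15.4 CPM in WT conventional, 22.7, 19.5 and 18.6 CPM in KO conventional, 14.5, 14.7 and 16.8 CPM in WT regulatory and 19.1, 19.4 and 20.9 CPM in KO regulatory libraries. The 3 KO libraries lay above the 3 WT libraries in both cell types, and neither comparison between cell types was called, at 0.04 in WT and -0.03 in KO. With T cell gene scaling Stmn1 was called higher in regulatory cells, at 0.69 in WT and 0.54 in KO. Cenpa was 37.5, 47.7 and 43.4 CPM in WT regulatory and 38.9, 41.9 and 41.9 CPM in KO regulatory libraries and was called in none of the 5 comparisons. With T cell gene scaling it was called higher in regulatory cells, at 0.71 in WT and 0.69 in KO. Cdt1 was not called between cell types in WT (0.00, or 0.63 with T cell gene scaling) and was higher in KO, at 0.38 (SE 0.0844, adjusted p = 0.00175). Foxm1 was higher in WT regulatory cells at 0.74 (SE 0.20, adjusted p = 0.00582) and not called in KO, at 0.29. The difference of its KO effects was not called, at adjusted p = 0.289.

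**Figure D5:**
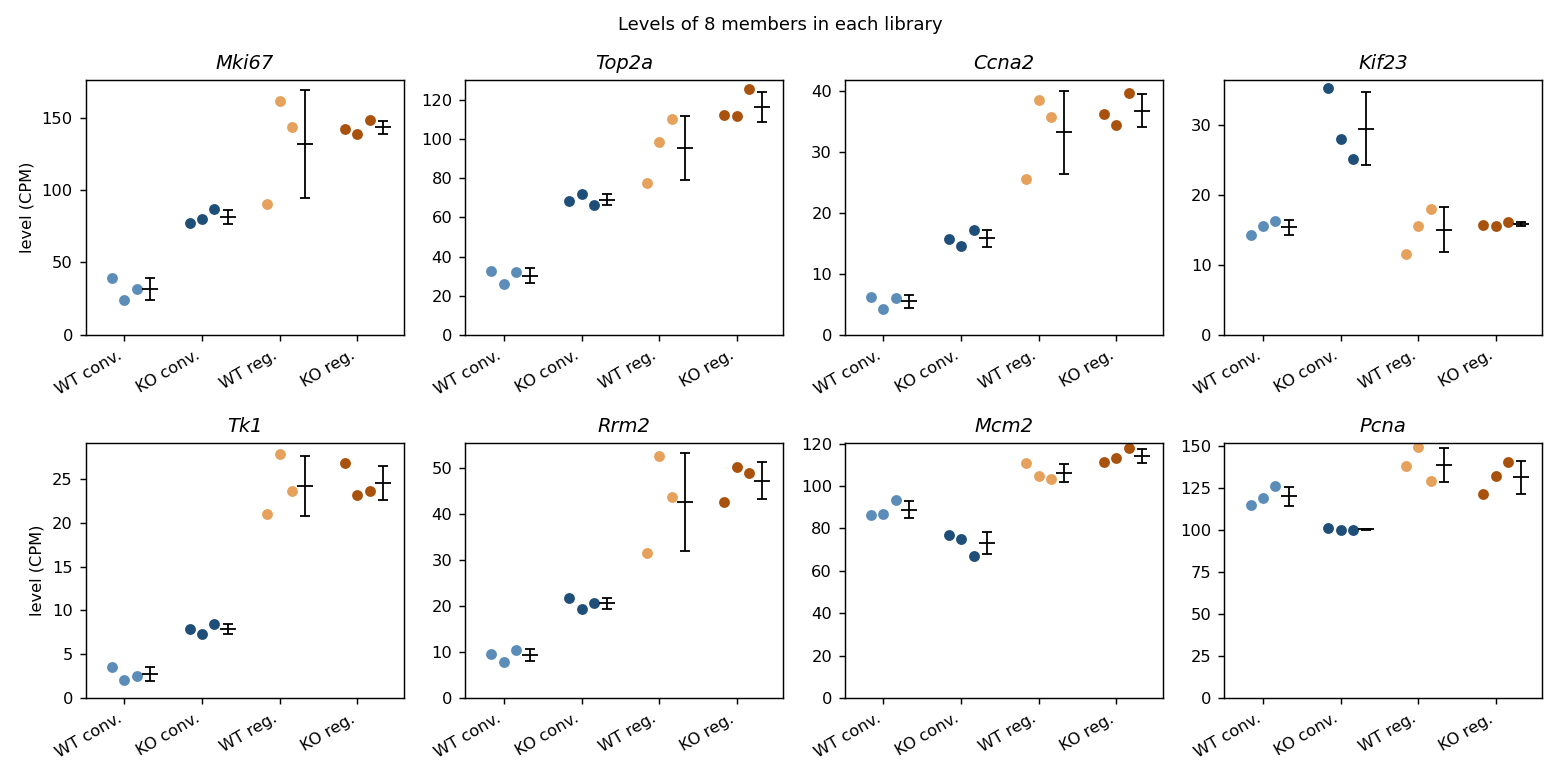
Level (CPM, linear axis from 0) of 8 members in each of the 12 libraries, with the mean and SD of 3 libraries beside each group. Mki67, Top2a, Ccna2, Tk1 and Rrm2 are higher in KO than in WT conventional libraries and higher again in regulatory ones, Kif23 is high in KO conventional libraries, and Mcm2 and Pcna are lowest there under TMM scaling, a direction that turns against WT conventional libraries with T cell gene scaling.

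Over the 4 groups, 23 of 28 mitotic members and 13 of 18 S phase members had mean levels in the order WT conventional, KO conventional, WT regulatory, KO regulatory. The means are TMM-scaled, and the share of all genes with that order was not counted. Between WT and KO regulatory libraries only 1 of the 46 members was called. The last pair in that order overlapped in the mitotic sum and lay next to each other in the S phase sum, with 1192 ± 38.1 CPM in WT, against 1293 ± 59.7 CPM in KO (SD, n = 3). Among the exceptions, Ube2c had 20.2 ± 5.77 CPM in WT, against 17.9 ± 1.99 CPM in KO regulatory libraries (SD, n = 3), and Kif23 and Stmn1 had their highest means in KO conventional ones. On a scale per length (RPKM, over the exons of GENCODE vM21), Pcna was the highest S phase member in WT conventional libraries at 49.97, followed by Mcm4 at 31.5 and Mcm6 at 23.4. Gins2, at 0.372 RPKM, was the lowest of that set. In the mitotic set Hmgb2 led at 16.2 RPKM and Cenpf was lowest at 0.246, and Mki67 and Top2a were close to each other at 3.14 and 3.35. In WT regulatory libraries Mki67 was at 13.1, Top2a at 10.6 and Pcna at 57.9 RPKM. The level of the helicase genes in WT conventional libraries was thus many times that of Cdk1 (0.616 RPKM) or Bub1 (0.383 RPKM). The lowest raw count of a member in a library was 36, for Gins2 in a WT conventional library.

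The wider cell cycle was followed with 116 further genes in 4 lists. In KO against WT conventional libraries, 60 were higher and 19 lower, with a median of 0.32, beside 23.3% and 25.4% of all genes. In regulatory libraries 3 were higher and 0 lower, with a median of 0.07, beside 4.01% and 3.82% of all genes. With T cell gene scaling 89 were higher and 0 lower in conventional and 54 and 0 in regulatory libraries. Of all genes, 44.0% were then higher and 0.377% lower in conventional, and 32.1% and 0.258% in regulatory libraries. Of 45 further mitotic genes, 36 were higher and 2 lower in conventional KO libraries, with a median of 0.98. Racgap1, the partner of Kif23 in the central spindle, rose by 1.10 (SE 0.13, adjusted p = 5.19e-05) and the cyclin F gene Ccnf by 1.16 (SE 0.14, adjusted p = 8.19e-05). Hjurp, the chaperone of Cenpa, was lower in regulatory cells of both genotypes, at -0.96 (SE 0.0482, adjusted p = 2.41e-08) in WT and -0.82 (SE 0.0480, adjusted p = 1.13e-07) in KO. Cenpm rose there by 2.64 in WT and Mad2l1, a checkpoint gene, by 0.74 in KO. Of 38 further replication genes, 15 were higher and 6 lower in conventional KO libraries, with a median of 0.13. Chaf1a, of the chromatin assembly factor, was among the first at 1.53 (SE 0.17, adjusted p = 3.94e-05), and Rpa1, a single-strand DNA-binding protein, among the second at -0.56 (SE 0.0533, adjusted p = 1.53e-05). Between cell types the clamp loader Rfc3 and the flap nuclease Fen1 rose by 1.39 and 1.17 in WT and by 1.09 and 1.08 in KO.

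Of 10 D cyclins and interphase kinases, 4 were higher and 1 lower in conventional KO libraries, beside 23.3% and 25.4% of all genes. Cdk6 (a kinase of D cyclins) was 41.9, 37.3 and 38.1 CPM in WT, against 95.9, 90.03 and 91.8 CPM in KO conventional, and 57.2, 59.1 and 65.4 CPM in WT, against 79.5, 80.8 and 89.2 CPM in KO regulatory libraries. It was higher in KO in both cell types, at 1.24 (SE 0.0691, adjusted p = 1.14e-06) and 0.46 (SE 0.0681, adjusted p = 0.00436), with a difference of effects of -0.79 (SE 0.10, adjusted p = 4.37e-04). Cdc25c, a phosphatase that activates Cdk1, rose by 2.68 (SE 0.35, adjusted p = 1.13e-04) in KO conventional libraries from under 1 CPM. Cdk4, the other kinase of D cyclins, was at 0.00 there and rose by 0.46 in KO regulatory against KO conventional cells, while the cyclin D3 gene Ccnd3 fell, at -0.54. Of 23 inhibitors and quiescence genes, 5 were higher, close to the 23.3% of all genes. In the same conventional KO libraries 10 were lower, beside 25.4% of all genes. With T cell gene scaling 12 were higher and 0 lower, where 44.0% of all genes were higher and 0.377% lower. Cdkn2c, the CDK4 and CDK6 inhibitor p18, was 4.67, 4.95 and 5.67 CPM in WT, against 9.92, 13.2 and 13.4 CPM in KO, a rise of 1.25 (SE 0.13, adjusted p = 2.32e-05). Cdkn1a, the inhibitor p21, was 3.46, 4.07 and 3.57 CPM in WT, against 10.7, 9.07 and 12.5 CPM in KO regulatory libraries, which did not overlap, a rise of 1.53 (SE 0.28, adjusted p = 0.0108). In conventional libraries p21 was 0.471, 0.261 and 0.0961 CPM in WT, against 2.47, 2.802 and 3.83 CPM in KO, a rise of 3.45 (SE 0.36, adjusted p = 2.92e-05). Cdkn2b, the inhibitor p15, was also higher in KO regulatory libraries, at 1.66 (SE 0.45, adjusted p = 0.0467). Thus Cdk6, Cdkn1a and Cdkn2b were the 3 of 116 called in the regulatory KO comparison. Cdkn1b, the inhibitor p27, was 355 ± 12.7 CPM in WT, against 289 ± 14.4 CPM in KO conventional libraries (SD, n = 3), lower at -0.30 (SE 0.0616, adjusted p = 0.00214). Between cell types Cdkn1b was at -0.82 in WT and -0.61 in KO, and the antiproliferative gene Tob1 was at -0.81 in KO. With T cell gene scaling the single genes named here as lower were no longer called. In KO conventional libraries Cdkn1b was then at 0.29 (adjusted p = 0.142) and Rpa1 at 0.02 (adjusted p = 0.910). In regulatory against conventional cells Hjurp was then at -0.31 in WT and -0.23 in KO and Cdkn1b at -0.18 and -0.04, and in KO Ccnd3 was at 0.06 and Tob1 at -0.22.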

How the data were processed

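Deposited raw counts per Ensembl gene, which the authors made with STAR on GRCm38 per the submitters' processing notes and from a stranded kit per the series' design text, were used for 12 libraries. The version listed for STAR is 1.7.20, and the annotation release is not given in the sources used here. Of 45706 genes, 45143 had a symbol, and the 4 tallies of reads given to no gene were left out.

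All libraries entered 1 fit in R 4.3.3 with edgeR 4.0.16, with a term per group, filterByExpr (minimum count 10, minimum total 15) and TMM factors. The quasi-likelihood F test was two-sided, with Benjamini-Hochberg adjustment over 15922 genes and a threshold of 0.05. The log2 fold change over the square root of F gave each standard error. All 46 members passed the filter. The biological coefficient of variation was 0.155. Positions and exon lengths came from GENCODE vM21 (GRCm38), promoters from RefSeq.

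The members, lists and alternatives were chosen with earlier results of these data known. Genes were picked for naming by rules, but some picked genes have no values printed for the comparison that picked them. The rules took, per role, the 2 members with the highest mean CPM and the 2 with the smallest p in the conventional KO comparison. Per comparison and set, they took the 3 with the smallest p. They also took every member called in the difference of effects or against most of its set. Per list of other cell cycle genes and 2-group comparison, they took the 2 called genes with the smallest p. Other members are named as well. Alternatives were RLE and upper-quartile factors, scaling to 6 T cell genes, DESeq2 1.42.0, limma-voom (limma 3.58.1), no filter, a stricter filter (5 CPM in 3 libraries), the compared groups only, the replicate number as a block, an Xist covariate, a minimum of 1.5-fold, an adjusted p below 0.01 and omission of each library. Leaving out both libraries with Xist and Y-linked reads was chosen after seeing the data. The procedure was tested on simulated data in which few genes were changed, in a single group. There, 2-fold changes were called for 61.6% of 99 genes between conventional groups, 57.6% between regulatory groups and 46.5% in the difference of effects. In the data, 7749 of 15922 genes were called between conventional groups, so these rates need not hold there.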

Additional observations from a re-analysis of the deposited data

Results flagged for a closer look

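The KO effect of 29 members differed between regulatory and conventional cells by the test of the difference itself. Each value below is the log2 KO effect in regulatory cells minus that in conventional cells, and the KO effects themselves are in the text above.

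In the S phase set the difference was -1.49 for Tk1, -1.11 for Ccne2, -0.99 for Rrm2, -0.99 for Cdc6, -0.85 for E2f2 and -0.83 for Gins2. It was 0.39 for Mcm2 and 0.39 for Cdt1, which were lower in KO conventional libraries. Pcna, the other member with a called fall there, had a difference that was not called, at 0.18 (SE 0.0911, adjusted p = 0.190).

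Among mitotic kinases and cyclins it was -1.38 for Ccna2, -1.20 for Cdk1, -1.10 for Aurkb, -1.09 for Ccnb1, -1.03 for Ccnb2 and -0.84 for Plk1. Checkpoint and centromere genes gave -1.49 for Ube2c, -1.28 for Bub1, -1.17 for Cenpf, -0.95 for Birc5, -0.85 for Cenpe and -0.82 for Bub1b. Spindle genes gave -1.20 for Prc1, -1.19 for Kif11, -1.15 for Nusap1, -1.10 for Tpx2, -0.87 for Kif23 and -0.82 for Kif20a. The chromosome proteins gave -1.24 for Mki67, -0.91 for Top2a and -0.48 for Hmgb2.

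The calls of 9 of these members did not survive the omission of certain single libraries. Ccnb1 lost its call without WT conventional 2 (adjusted p = 0.0534) and Ccnb2 without WT conventional 2, KO conventional 3 (adjusted p up to 0.0561). Cdc6 lost it without WT conventional 2, KO conventional 1 or 3, WT regulatory 2 or 3, KO regulatory 3, at adjusted p up to 0.0707. For Aurkb the libraries were WT conventional 2 or 3, KO conventional 1, WT regulatory 2 or 3, KO regulatory 2, at adjusted p up to 0.0747. For Cenpe they were WT conventional 2 or 3, KO conventional 3, WT regulatory 2 or 3, KO regulatory 2, at adjusted p up to 0.0570. Cdt1 lost its call without WT conventional 2 or 3, KO conventional 2 or 3, WT regulatory 1 or 3, KO regulatory 2 or 3, at adjusted p up to 0.107. Plk1 and Birc5 each lost it without any 1 of 9 libraries and Gins2 without any 1 of 10, at adjusted p up to 0.0919, 0.108 and 0.109. Plk1 kept its call without WT conventional 3, WT regulatory 1 or KO regulatory 3, Birc5 without WT conventional 1, WT regulatory 1 or KO regulatory 3, and Gins2 without WT conventional 1 or WT regulatory 1.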

How the results depend on the processing

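The counts of members called were 36 to 41 in the conventional KO comparison, 40 to 41 between cell types in WT and 41 to 43 in KO when 1 library was left out. In the regulatory KO comparison, where 1 member was called, the counts were 0 to 4 with 1 library left out, 0 without a filter, with the compared groups only, with a replicate block, at a threshold of 0.01 and at a 1.5-fold minimum. They were 2 with upper-quartile factors and without both libraries with Xist and Y-linked reads, 3 with the Xist covariate, 4 with DESeq2 and with the stricter filter, and 20 with T cell gene scaling. For the difference of effects the count of 29 became 20 to 30 with 1 library left out, 14 at a threshold of 0.01 and 5 with T cell gene scaling. Calls kept in every alternative other than the stricter threshold and the fold minimum numbered 34 of 40 in the conventional KO comparison, 40 of 41 between cell types in WT, 40 of 43 in KO, 5 of 29 in the difference of effects and 0 of 1 in the regulatory KO comparison. Apart from T cell gene scaling, 20 of the 29 were kept in each of these. The cause of these changes was not tested.

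T cell gene scaling assumes equal amounts of 6 T cell transcripts per library and turned 10 values. In the conventional KO comparison Mcm2 became 0.31, Mcm4 0.48, Mcm7 0.59, Pcna 0.33 and Cdt1 0.36, and in the regulatory one Pcna became 0.44. Between cell types in WT, Mcm4 became 0.63, Cdt1 0.63 and Kif23 0.65, and in KO Stmn1 became 0.54. The S phase sum became 517 CPM in WT conventional, 1237 in WT regulatory and 1925 in KO regulatory libraries, and the mitotic sum 183 in WT conventional and 1234 in KO regulatory ones. Every S phase member was then above 0 in the conventional KO comparison, from 0.31 for Mcm2 to 2.10 for Tk1. With upper-quartile factors the sums of KO conventional libraries were 838 and 524 CPM. The replicate block left 39, 41 and 43 calls in the conventional KO comparison and between cell types in WT and KO, and 25 in the difference of effects. Deviations of same-numbered libraries from their group means correlated at -0.08, -0.07 and 0.28 between KO and WT conventional libraries. Between KO and WT regulatory libraries they correlated at -0.25, 0.26 and -0.68. Between regulatory and conventional libraries the values were -0.16, -0.18 and -0.20 in WT and 0.17, 0.30 and -0.06 in KO. Among all pairs the highest value was 0.71, between KO regulatory replicate 1 and WT regulatory replicate 3, the 2 mixed libraries. WT conventional 1 and 2 had Xist but 0 CPM of the Y-linked Ddx3y, while WT regulatory 1 and 2 had 94.7 and 102 CPM. KO conventional 2, with Xist at 1745 CPM, differed likewise from KO regulatory 2, with 1.51 CPM. These same-numbered libraries thus did not come from 1 animal. The 3 libraries of a group also differed in sex-linked reads and markers of other cells. For the other same-numbered libraries, the correlations cannot decide whether the numbers pair samples. The lowest raw count of a member in a library was 36, so depth limits the values of the lowest members, such as Gins2, most.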

Other observations

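Within the WT groups, the mitotic members varied more between libraries than the S phase members. The median coefficient of variation of a mitotic member over 3 libraries was 18.8% in WT conventional, 5.51% in KO conventional, 20.9% in WT regulatory and 6.93% in KO regulatory libraries. For S phase members it was 7.61%, 5.62%, 7.17% and 6.99%. WT regulatory replicate 1, which had the fewest gene counts, held the lowest value of its group in 28 of 28 mitotic and 12 of 18 S phase members. WT conventional replicate 2 was the lowest of its group in 23 of 28 mitotic and 8 of 18 S phase members. The share of all genes was not counted for either library. For Mki67 the first of these libraries had 90.1 CPM beside 161 and 144 CPM, and the second 24.1 CPM beside 39.0 and 31.7 CPM. Reads of the B cell list summed to 3632, 3597 and 5045 CPM in WT regulatory replicates 1 to 3, those of the plasma cell list to 1099, 2162 and 762 CPM and Foxp3 to 581, 494 and 485 CPM. The part of depth and of other cells in these differences between replicates was not tested.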
